A study of Mus musculus with 8 samples.

Results

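The genes described here carry 2 immunosuppressive signals, prostaglandins and adenosine, in CD4+CD25+ T cells of the uterine draining lymph nodes of pregnant mice. They were fixed by name as 5 genes, Ptger2, Ptger4, Ptgdr, Ptgs2 and Adora2a, and were read from probe sets annotated to 1 gene alone, taking the probe set with the highest mean over the 8 arrays where a gene had several. Of these 5 genes, 4 were measured, among 6986 genes in all. The adenosine receptor gene Adora2a had no probe set that met this rule and was not analysed here. Expression was measured on Affymetrix Mouse Gene 2.0 ST arrays, 4 labelled IL10-/- and 4 labelled IL10+/+, and values are log2 expression. The IL10-/- arrays held cells from mutant mice, backcrossed to C57BL/6, that drank water with oxytetracycline (2 mg/ml, against colitis). The IL10+/+ arrays held cells from C57BL/6 mice, for which no antibiotic is stated, so genotype and antibiotic cannot be told apart. All mice were pregnant females at day 9.5 post coitus, and every array took a pool of RNA of 2 to 4 animals that entered no other array. The labels call the cells Tregs on the basis of a CD4+CD25+ sort, and this fraction also takes in activated T cells without Foxp3. The Treg genes Ctla4 and Ikzf2 gave strong signals in every array (10.88 to 11.36 for Ctla4 in IL10-/- and 11.18 to 11.49 in IL10+/+, and 11.19 to 11.49 for Ikzf2 in IL10-/- and 11.44 to 11.75 in IL10+/+), while Foxp3, Il2ra and Cd4 were not analysed here.

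Prostaglandins are lipid mediators made from arachidonic acid. Cyclooxygenases turn this fatty acid into prostaglandin H, and Ptgs2 encodes cyclooxygenase 2, the form that inflammatory signals induce. Ptger2 and Ptger4 encode the EP receptors for prostaglandin E that couple to the stimulatory G protein, and Ptgdr encodes the DP receptor for prostaglandin D, which couples in the same way. Adora2a encodes an adenosine receptor with the same coupling. All of them raise cyclic AMP, which activates protein kinase A and, in T cells, dampens signalling from the T cell receptor. Regulatory T cells are known both to form extracellular adenosine and to use cyclic AMP in suppression.

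Protein kinase A acts on transcription through the cyclic AMP response element, so the promoters of the 4 measured genes were searched for it. All 4 had an entry in the RefSeq promoter table (build GRCm38.p6), whose windows run from 250 bases before the annotated start to 50 after it. The 250 bases before each start are shown 5′ to 3′ on the gene's own strand, with capitals for the element's core (TGACG), the GC box (GGGCGG) and the CCAAT box on either strand. A last line gives 30 bases just after the annotated Ptgs2 start, with only the core in capitals.
Ptger2, chr14:44987861-44988110, plus strand: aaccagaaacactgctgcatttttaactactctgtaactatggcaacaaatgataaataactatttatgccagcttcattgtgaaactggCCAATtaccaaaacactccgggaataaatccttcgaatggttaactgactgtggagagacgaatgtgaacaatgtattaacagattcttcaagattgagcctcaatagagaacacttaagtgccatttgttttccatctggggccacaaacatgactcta
Ptger4, chr15:5244188-5244437, minus strand: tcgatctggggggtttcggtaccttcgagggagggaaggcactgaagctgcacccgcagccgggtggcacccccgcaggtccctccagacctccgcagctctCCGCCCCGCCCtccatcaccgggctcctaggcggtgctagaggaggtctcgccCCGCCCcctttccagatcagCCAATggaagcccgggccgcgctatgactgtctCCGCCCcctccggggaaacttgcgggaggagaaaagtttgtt
Ptgdr, chr14:44859376-44859625, minus strand: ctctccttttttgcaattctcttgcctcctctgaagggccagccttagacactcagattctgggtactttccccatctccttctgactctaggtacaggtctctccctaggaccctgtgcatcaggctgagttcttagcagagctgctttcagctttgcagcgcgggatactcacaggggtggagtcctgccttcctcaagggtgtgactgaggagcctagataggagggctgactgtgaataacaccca
Ptgs2, chr1:150099781-150100030, plus strand: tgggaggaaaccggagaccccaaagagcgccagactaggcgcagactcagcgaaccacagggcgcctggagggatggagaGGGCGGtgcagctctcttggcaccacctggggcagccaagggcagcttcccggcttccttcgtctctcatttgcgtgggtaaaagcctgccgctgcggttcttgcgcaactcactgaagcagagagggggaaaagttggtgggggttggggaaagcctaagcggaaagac
Ptgs2 core site, chr1:150100032-150100061, plus strand: gagtcaccactaCGTCAcgtggagtccgct
The full element TGACGTCA was in none of the 4 windows, and in 1.79% of the 32851 windows of the table. The core TGACG, which lies within the full element, was in 20.8% of all windows and, among these genes, was found once, in Ptgs2, on the reverse strand, from base 14 of the transcript as annotated. The Ptger4 window held 4 GC boxes, a pair of which share a base, and 1 CCAAT box, the Ptgs2 window 1 GC box and the Ptger2 window 1 CCAAT box. GC boxes were in 35.7% and CCAAT boxes in 37.4% of all windows. Neither TATAAA (13.6% of windows) nor the forkhead motif GTAAACA (3.65%), the kind of site that Foxp3 can bind, was in the 4 windows. Ptgdr and Ptger2 are neighbours on chromosome 14, with no protein-coding gene between them. These matches describe the letters only.

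The 8 arrays had medians of 6.97 to 7.12 over the tested genes, and Pearson's r between arrays over genes was 0.974 to 0.993. IL10-/- replicate 2 and IL10+/+ replicate 4 stood apart, with scores of 16.6 and 17.8 on the first principal component over all genes, against -13.3 to -2.7 in the other 6 arrays. Their interquartile ranges over genes were also the narrowest, 2.15 and 2.17, against 2.32 to 2.58 in the other 6. The differences of the 4 genes are therefore also given without these 2 arrays. In bulk RNA, fewer cells of a type and less RNA per cell cannot be told apart. The targeted gene Il10 read higher in IL10-/- (9.35, 8.65, 9.42 and 9.25) than in IL10+/+ (8.27, 8.51, 8.14 and 7.50). No source used here names the deleted part, so this probe set checks no label, and directions below rest on the labels as deposited.

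No difference between the groups was detected for the prostaglandin receptor and cyclooxygenase genes. Of the 4 measured genes, 0 passed limma's test at an adjusted p of 0.05 over all 6986 genes, against 0.0286% of all genes (2 genes). At an unadjusted p of 0.05, limma called 0 of the 4, as did an equal-variance test per gene, and limma called 4.78% of all genes. Without the arrays that stood apart, limma again passed 0 of the 4. The groups overlapped for all 4 genes, whereas they did not overlap for 2.92% of all genes. The 4 differences, IL10-/- minus IL10+/+, were 1 positive and 3 negative, with a median of -0.08 beside 0.00 over all genes. All 4 had an adjusted p of 0.999. Their 95% intervals show which changes the 8 arrays could have missed, and these differed widely between the genes.

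Ptger2, the EP2 receptor gene, had the tightest values. It read 8.96, 8.91, 8.81 and 8.89 in IL10-/- replicates 1 to 4, and 8.89, 8.84, 8.94 and 8.69 in IL10+/+ replicates 1 to 4. All 8 arrays thus lay within 0.27, and the lowest was the IL10+/+ array that stood apart. The means were 8.89 ± 0.06 in IL10-/- and 8.84 ± 0.11 in IL10+/+ (SD, n = 4 each), and the log2 values differed by 0.05 (SE 0.10, exact two-sided permutation p = 0.514). The 95% interval of -0.16 to 0.26 corresponds to 0.89-fold to 1.20-fold, so larger changes in either direction lay outside it. Without the 2 arrays that stood apart the difference was -0.01 (SE 0.10). The SD of Ptger2 over the 8 arrays was 0.09, and 4.55% of all genes had a smaller one.

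Ptger4, the EP4 receptor gene, varied most of the 4. It read 9.14, 7.98, 8.96 and 9.17 in IL10-/- replicates 1 to 4, and 9.30, 9.04, 9.19 and 8.48 in IL10+/+ replicates 1 to 4. In each group the lowest array was the one that stood apart, 1.11 below the mean of the other 3 in IL10-/- and 0.69 below it in IL10+/+ on the log2 scale. The means were 8.81 ± 0.56 in IL10-/- and 9.0 ± 0.36 in IL10+/+ (SD, n = 4 each), a difference of -0.19 (SE 0.26, exact permutation p = 0.543). Its interval of -0.77 to 0.40, or 0.59-fold to 1.32-fold, was the widest of the 4. Without the arrays that stood apart the means were 9.09 ± 0.11 in IL10-/- and 9.17 ± 0.13 in IL10+/+ (SD, n = 3 each), with a difference of -0.08 (SE 0.12, interval -0.35 to 0.18, adjusted p = 0.984 by limma). The difference turned positive, to 0.09 (SE 0.18), when only IL10-/- replicate 2 was left out. The SD of Ptger4 over 8 arrays was 0.45, larger than that of 96.6% of genes, and over the other 6 arrays it was 0.12, larger than that of 26.7%.

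**Figure D1:**
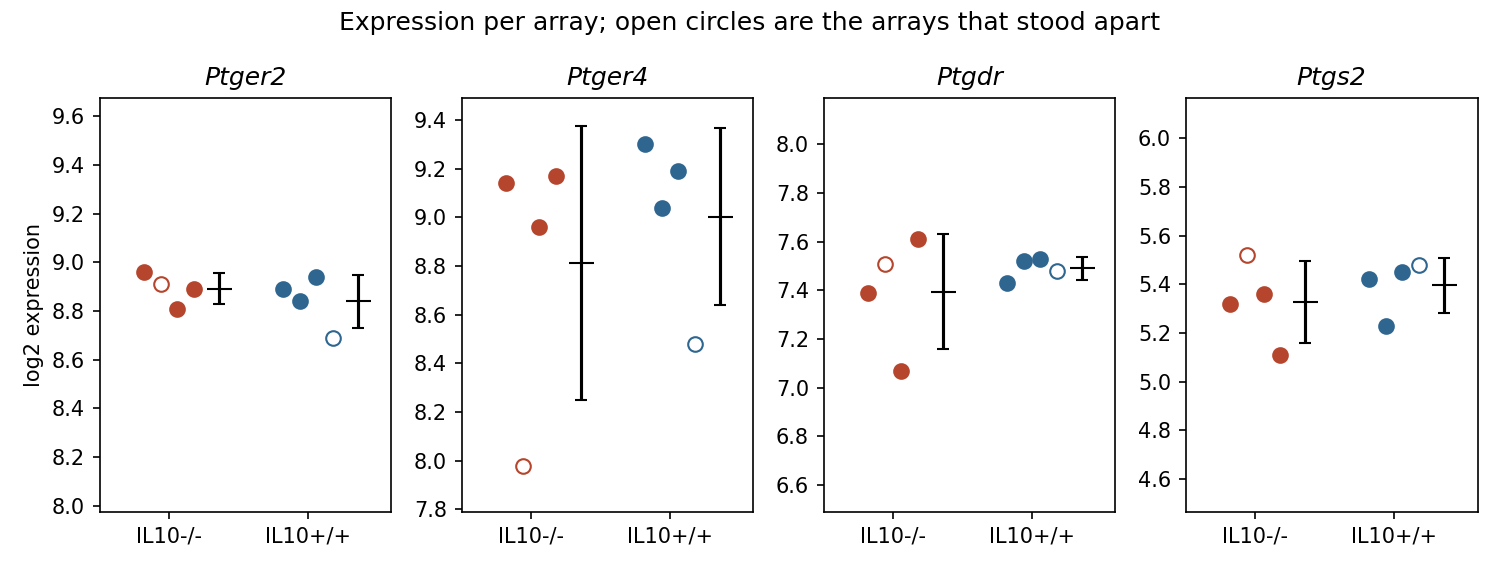
Log2 expression of Ptger2, Ptger4, Ptgdr and Ptgs2 in each array (filled and open circles), IL10-/- left of IL10+/+, with the mean and SD of 4 arrays as black bars and the same span on each vertical axis. The groups overlap in every panel, and the open circles, the 2 arrays that stood apart, are the lowest Ptger4 values at 7.98 and 8.48.

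Ptgdr, the DP receptor gene, was read by 2 probe sets. The brighter one gave 7.39, 7.51, 7.07 and 7.61 in IL10-/- replicates 1 to 4, and 7.43, 7.52, 7.53 and 7.48 in IL10+/+ replicates 1 to 4. The IL10+/+ arrays lay within 0.10 of each other, whereas the IL10-/- arrays spanned 0.53, with replicate 3 lowest and replicate 4 highest of all 8. The means were 7.39 ± 0.23 in IL10-/- and 7.49 ± 0.04 in IL10+/+ (SD, n = 4 each), a difference of -0.09 (SE 0.12, 95% interval -0.36 to 0.18, exact permutation p = 0.543). It was 0.01 without IL10-/- replicate 3, and -0.13 (SE 0.14) without the arrays that stood apart. The dimmer probe set gave 6.24, 5.86, 5.90 and 6.08 in IL10-/- and 6.15, 6.09, 6.24 and 6.21 in IL10+/+, a difference of -0.15 (exact permutation p = 0.171). The groups overlapped for this probe set too, and IL10-/- replicate 1, not 4, was its highest mutant array.

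Ptgs2, the cyclooxygenase 2 gene, gave a dim signal in every array. It read 5.32, 5.52, 5.36 and 5.11 in IL10-/- replicates 1 to 4, and 5.42, 5.23, 5.45 and 5.48 in IL10+/+ replicates 1 to 4. The highest array of each group was the one that stood apart, the reverse of Ptger4. Both of those arrays had a narrower spread over genes than the others, and Ptgs2 is dim where Ptger4 is bright. Ptger2, with a signal similar to that of Ptger4, differed from the mean of the rest of its group by 0.03 in IL10-/- replicate 2. In IL10+/+ replicate 4 it differed by -0.2. The part of the narrower spread in the contrast of Ptgs2 and Ptger4 was not tested. The means were 5.33 ± 0.17 in IL10-/- and 5.39 ± 0.11 in IL10+/+ (SD, n = 4 each), a difference of -0.07 (SE 0.11, 95% interval -0.32 to 0.18, exact permutation p = 0.543). The difference was -0.10 (SE 0.12) without the arrays that stood apart and 0.01 without IL10-/- replicate 4.

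The files hold no detection calls, so the 226 measured olfactory receptor genes, which T cells are not known to use, served as a guide to background signal. Their means over the 8 arrays had a median of 5.04. Of these, 91 had a mean at or above that of Ptgs2, 8 at or above that of Ptgdr, and 0 at or above those of Ptger2 and Ptger4. Probe sets differ in affinity, so this places the signals against background and gives no order of transcript levels between genes. Expression of Ptgs2 in these cells is not shown by its signal.

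**Figure D2:**
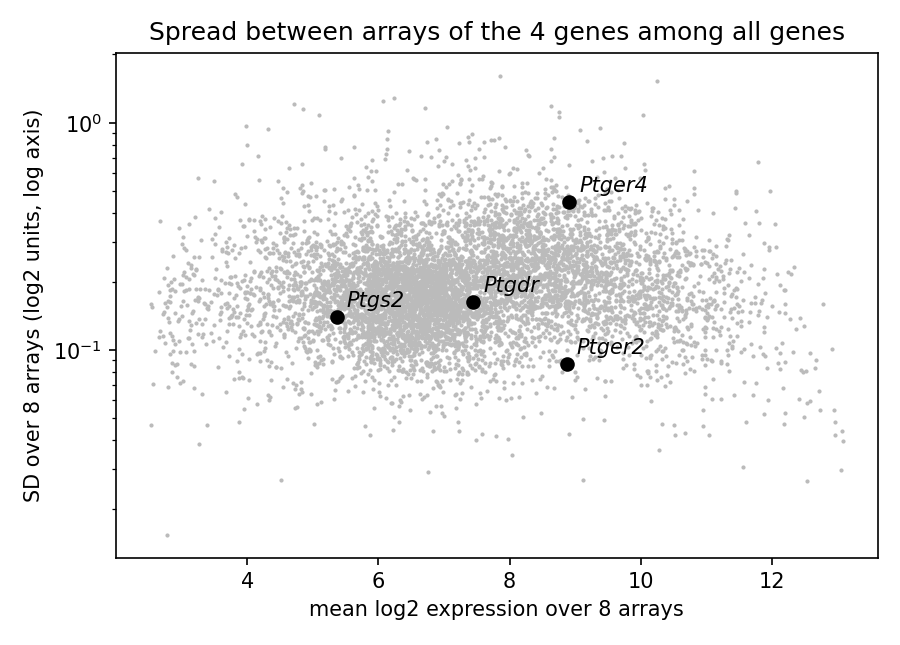
Standard deviation over the 8 arrays (log axis) against mean log2 expression, for all genes (grey) and the 4 measured genes (black). Ptger4 has an SD of 0.45, larger than that of 96.6% of genes, and Ptger2, at a similar signal, an SD of 0.09.

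How alike the 4 genes varied across the arrays depended on the arrays taken. Pearson's r over the 8 arrays, given as a description of pools that share an amplification protocol, ran from -0.56 between Ptger4 and Ptgs2 to 0.31 between Ptger2 and Ptger4. Over the 6 arrays without those that stood apart, r was positive for all 3 receptor pairs, at 0.66 for Ptger2 with Ptger4, 0.46 for Ptger2 with Ptgdr and 0.58 for Ptger4 with Ptgdr, which had been 0.31, 0.17 and -0.08 over 8 arrays. With Ptgs2, r over the 6 arrays was 0.25 for Ptger2, 0.22 for Ptger4 and -0.41 for Ptgdr. IL10-/- replicate 3 was the lowest of those 6 arrays for all 3 receptor genes (Ptger2 8.81, Ptger4 8.96 and Ptgdr 7.07). The receptor r values without it were not computed, so they do not show that the receptors vary together. The plot against the first principal component shows how far the values over 8 arrays rest on 2 arrays.

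**Figure D3:**
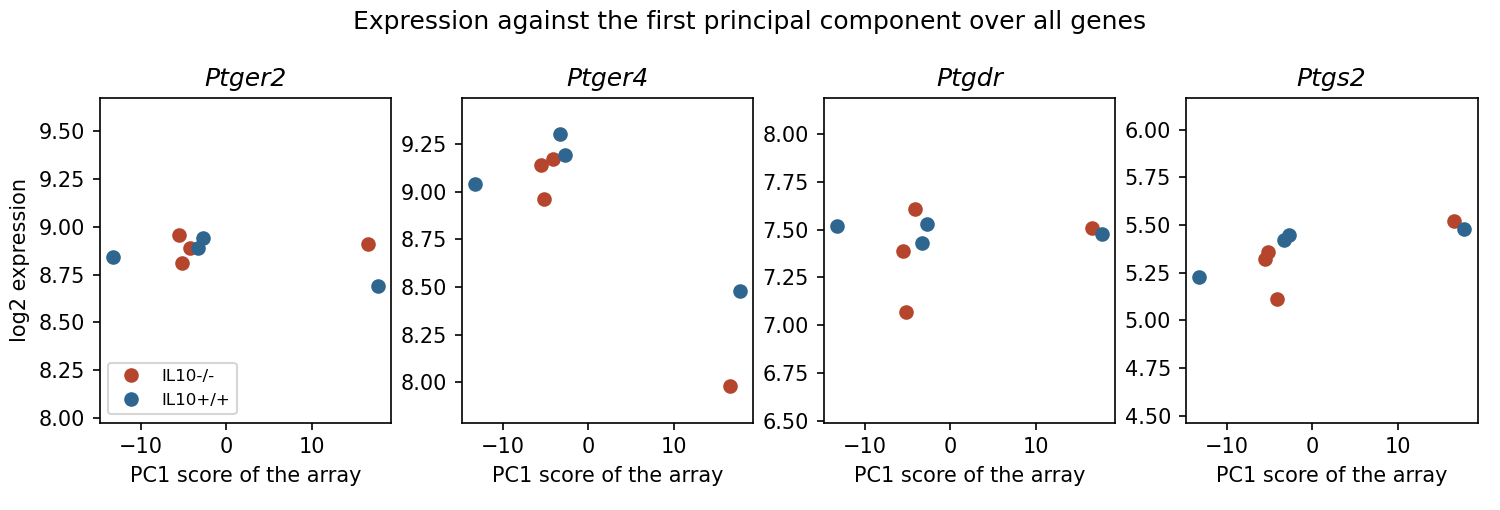
Log2 expression of each gene against the array's score on the first principal component over all genes, IL10-/- in red and IL10+/+ in blue. The arrays at scores of 16.6 and 17.8 hold the lowest Ptger4 values (7.98 and 8.48) and the highest Ptgs2 values (5.52 and 5.48), while Ptgdr reads 7.51 and 7.48 there.

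Genes with the most similar profiles were taken among 3247 named genes with a mean at or above the median of all genes, by Pearson's r over the 8 arrays. For Ptger4 the closest was Ikzf4 (r = 0.988), which encodes Eos, an Ikaros family factor that works with Foxp3. Ikzf4 read 9.29, 8.65, 9.21 and 9.31 in IL10-/- and 9.35, 9.17, 9.37 and 8.97 in IL10+/+, so it too was lowest in the arrays that stood apart. Its r with Ptger4 was 0.846 over the other 6 arrays. Next came the Mediator subunit gene Med24 (0.974, and 0.713 over 6 arrays) and Mapk1ip1l (0.973, and 0.634). Ptger2 was closest to Coa8, a factor for assembly of mitochondrial complex IV (0.920, and 0.796 over 6 arrays), then to Plekhm3 (0.917) and Rab10os (0.915). Ptgdr was closest to Gpr52, an orphan G protein-coupled receptor gene (0.969), Ccdc71l (0.961) and Akap11 (0.924), an anchor protein for protein kinase A. Those 3 kept r of 0.958 to 0.968 over 6 arrays. These still hold IL10-/- replicate 3, the lowest array for Ptgdr (7.07), Gpr52 (8.07), Ccdc71l (8.31) and Akap11 (8.79). The r values without that array were not computed. Ptgs2 was closest to Olfml2b (0.933), Irf2bpl (0.912) and Zfp219 (0.894). Each r is the highest among these candidates over only 8 arrays, and no test was made.

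Of 12 listed genes for prostanoid receptors and transport, 5 were measured, and 0 passed the test in either direction. Beside the 3 receptors above, Tbxa2r, the thromboxane receptor gene, read 8.10, 7.53, 7.91 and 8.05 in IL10-/- and 8.02, 7.79, 8.06 and 7.86 in IL10+/+ (difference -0.04, SE 0.14). Abcc4, which encodes an exporter of prostaglandins and cyclic nucleotides, read 7.81, 7.69, 7.92 and 7.85 in IL10-/- and 8.25, 8.04, 7.80 and 7.64 in IL10+/+ (difference -0.11, SE 0.14). Both genes overlapped between the groups.

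Of 20 listed genes for prostanoid synthesis and breakdown, 4 were measured and 0 passed. Pla2g4a encodes the cytosolic phospholipase that releases arachidonic acid, and is the nearest protein-coding neighbour of Ptgs2 on chromosome 1. It read 5.42, 5.68, 5.70 and 5.37 in IL10-/- and 5.29, 5.18, 5.80 and 5.44 in IL10+/+ (difference 0.11, SE 0.15). Ptges3, the cytosolic prostaglandin E synthase that also serves as an Hsp90 cochaperone, differed by 0.08 (SE 0.12). Ptgr2, a reductase that breaks prostaglandins down, differed by -0.09 (SE 0.11).

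Adenosine handling was measured only in part, in 5 of 24 listed genes, and not at the receptors. All 5 differences were negative and 0 passed, with a median of -0.04. Adk, adenosine kinase, which removes adenosine inside the cell, read 8.57, 7.84, 8.56 and 8.41 in IL10-/- and 8.55, 9.16, 8.61 and 8.44 in IL10+/+. The groups overlapped, each was lowest in the array that stood apart, and the difference was -0.34 (SE 0.20, 95% interval -0.77 to 0.09, limma adjusted p = 0.999). The nucleoside transporter genes Slc29a3 and Slc28a3 differed by -0.04 (SE 0.18) and -0.01 (SE 0.12). The nucleotide-cleaving enzyme genes Entpd5 and Enpp3 differed by -0.02 (SE 0.14) and -0.06 (SE 0.12). The ectoenzyme genes Entpd1 and Nt5e, which form extracellular adenosine on regulatory T cells, were not analysed here.

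**Figure D4:**
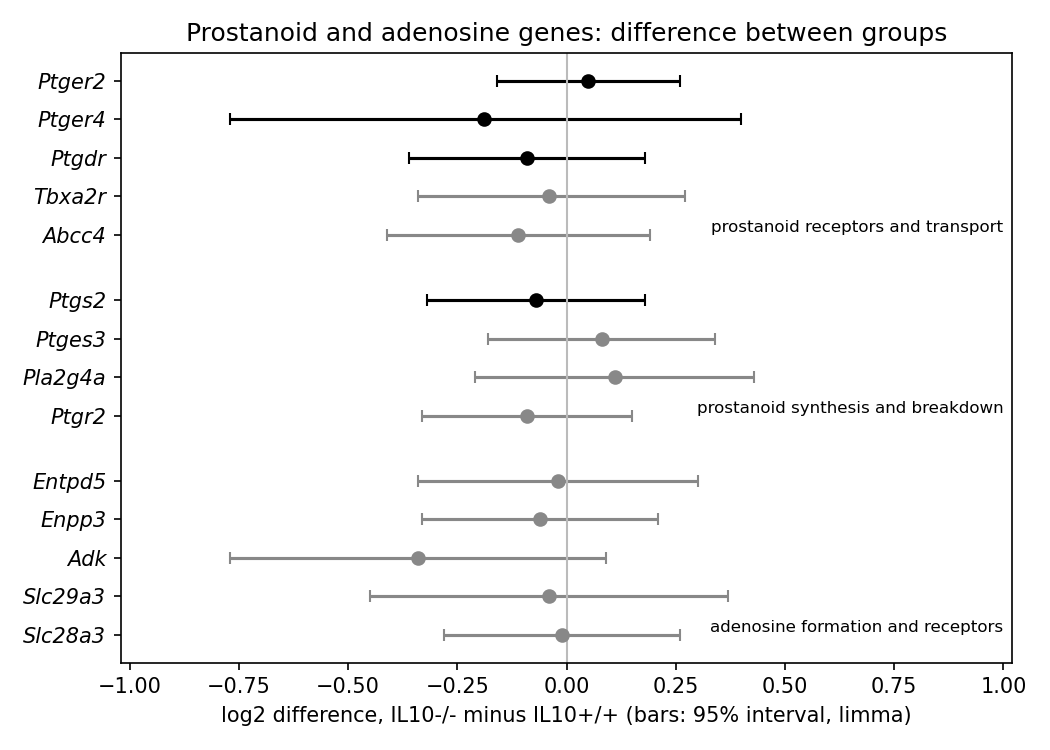
Log2 difference, IL10-/- minus IL10+/+, with its 95% interval from limma (4 arrays per group) for the measured prostanoid and adenosine genes, the 4 described in detail in black. Every interval includes 0, and those of Ptger4 (-0.77 to 0.40) and Adk (-0.77 to 0.09) are the widest.

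Downstream of the receptors, 23 of 63 listed genes of the stimulatory G protein and cyclic AMP pathway were measured, 11 with a positive and 12 with a negative difference. None passed over all genes by limma, and the median was -0.04. The 2 genes named next had an unadjusted p under 0.05 and no overlap between the groups, beside 4.78% and 2.92% of all genes. Pde7b, a phosphodiesterase that degrades cyclic AMP, gave a dim signal and read 5.77, 5.86, 6.02 and 5.58 in IL10-/- and 6.07, 6.62, 6.26 and 6.03 in IL10+/+. All mutant arrays lay below all wild-type arrays, by 0.01 at the closest, and the difference was -0.44 (SE 0.15, limma adjusted p = 0.777). Akap5, an anchor for protein kinase A, read 7.21, 7.32, 7.01 and 7.31 in IL10-/- and 7.34, 7.44, 7.48 and 7.51 in IL10+/+, with a difference of -0.23 (SE 0.10, limma adjusted p = 0.999). Prkar2b, a regulatory subunit of the kinase, differed by 0.37 (SE 0.17), and Akap7, another anchor, by 0.18 (SE 0.13). For Prkar2b the groups overlapped through IL10+/+ replicate 3, at 6.24.

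Of 31 listed cyclic AMP response genes, 14 were measured, 4 with a positive and 10 with a negative difference, and 0 passed, with a median of -0.11. Il10 itself is on this list and had the smallest p (difference 1.06, SE 0.22, limma adjusted p = 0.405). Rgs1, which shortens G protein signals, differed by 0.20 (SE 0.11). Cxcr4, a chemokine receptor gene, differed by -0.34 (SE 0.24), and Egr2, a transcription factor induced by T cell receptor signals, by -0.27 (SE 0.19). As with Ptger4, 7 of these 14 genes were lowest in the array that stood apart in each group, beside 12.9% of all 6986 genes. They were Nr4a1, Fos, Btg1, Btg2, Gadd45b, Klf6 and Il10, and were singled out after their values were seen. The mean of the 14 measured genes per array was 8.85 to 9.45 in IL10-/- and 9.10 to 9.40 in IL10+/+. The median of all gene means was 7.04, so 12.9% is not a share among equally bright genes. The arrays that stood apart also had the narrowest spread over genes, and the part of this was not tested. Nr4a1, an immediate early gene of T cell activation, lay 1.00 below the mean of the other 3 arrays in IL10-/- replicate 2 and 0.89 below it in IL10+/+ replicate 4. Many of these genes also respond to T cell receptor signals and to cell handling, and the part of either in the Ptger4 values was not tested.

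Markers of other cells were checked because prostanoid receptors are also found on myeloid and mast cells. Both measured mast cell genes, Mcpt4 and Cma1, of 6 listed, gave uneven signals. Mcpt4 read 7.49, 9.70, 9.28 and 7.17 in IL10-/- and 10.08, 8.07, 8.86 and 9.29 in IL10+/+. Cma1 read 7.92, 8.78, 8.94 and 7.95 in IL10-/- and 10.08, 8.15, 8.94 and 8.64 in IL10+/+. Both were highest in IL10+/+ replicate 1, which also had the highest Ptger4 value of the 8 arrays. Mcpt4 was next highest in IL10-/- replicate 2, the array with the lowest Ptger4 value. Cma1 was not, as its 8.78 there lay below the 8.94 of replicate 3 in each group. The mean of the 2 mast cell genes ranged over 7.56 to 9.24 in IL10-/- and 8.11 to 10.08 in IL10+/+. The mean of the 3 measured macrophage and monocyte genes, of 9 listed, was 6.99 to 7.84 in IL10-/- and 7.32 to 7.44 in IL10+/+. The mean of the 5 measured B cell genes, of 9 listed, was 6.77 to 7.20 in IL10-/- and 6.65 to 6.82 in IL10+/+. The highest mean of both these lists was in IL10-/- replicate 2, though in each list some genes were highest in another array. The mean of the 4 measured neutrophil and granulocyte genes, of 7 listed, was highest in IL10+/+ replicate 1. It was 6.54 there and 6.42 in IL10-/- replicate 2. The part of such cells in the values above was not tested.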

How the data were processed

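Gene expression was measured in 8 arrays, 4 labelled IL10-/- and 4 labelled IL10+/+, each from RNA amplified with the Ovation PicoSL system. The deposited log2 values were made by the authors in Partek Genomics Suite by RMA background correction, correction for GC content and averaging within probe sets, per the design text. Affymetrix Expression Console appears too, per the submitters' processing notes. Program versions and the genome build: not given in the sources used here.

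Of 16378 probe sets, 7358 were annotated to 1 gene, 456 to several and 8564 to none. Symbols were updated by Entrez identifier to the RefSeq table of GRCm38.p6 (7310 matched), leaving 6986 genes, without a filter on signal. Gene lists were thus measured only in part. Groups were compared with limma 3.58.1 (lmFit, eBayes) in R 4.3.3, IL10-/- minus IL10+/+, with Benjamini-Hochberg adjustment over all 6986 genes, and by exact two-sided permutation of the difference in means (70 assignments of arrays), which cannot give a p below 0.0286. The limma step was tested on simulated data with independent noise and shifts larger than the differences of the 4 genes. No simulated array stood apart, so that test does not cover this feature of the data. The number of arrays limits the precision.

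The genes and lists were chosen with earlier results of these data known. Named were all listed prostanoid and adenosine genes measured, the 4 of smallest p in each cyclic AMP list, Il10, and the 3 most similar genes to each of the 4. The alternatives covered normalization, signal filter, error model, probe set choice, a replicate block and arrays left out.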

Additional observations from a re-analysis of the deposited data

Results flagged for a closer look

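Some named genes had 1 array far from the other 3 of its group, by a gap that passed Dixon's 95% critical value. This was so for 9 of the 90 groups of 4 arrays counted, which covered named genes only. The usual rate of about 1 in 20 is no yardstick here. Several of the genes, among them Btg1, Btg2, Gadd45b, Ikzf4, Med24 and Gpr52, were named because of their array values. Of these, 6 were IL10-/- replicate 2, an array that stood apart over all genes, at low values: Btg1 and Btg2, both at 9.84, Gadd45b at 8.62, Ctla4 at 10.88, Ikzf4 at 8.65 and Med24 at 7.84. Ptger4 in the same array, at 7.98, had a gap of 0.824 of the group's range, which lay just under that value. The others were Rgs1 at 10.57 in IL10-/- replicate 4, Prkar2b at 6.24 in IL10+/+ replicate 3 and Gpr52 at 8.81 in IL10+/+ replicate 1. Outside that count, further listed genes passed the value in the arrays that stood apart, at high values. They were Ebf1 at 6.92 in IL10-/- replicate 2, and Mpo at 6.84 and Rapgef3 at 7.39 in IL10+/+ replicate 4. Rgs2 passed it as well, at 10.19 in IL10-/- replicate 4.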

How the results depend on the processing

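Over 17 alternatives, 0 of the 4 measured genes passed the threshold, and the smallest adjusted p by limma was 0.871. Of 67 recomputed differences, 63 kept their sign. The 4 that changed sign were Ptger2 at -0.01 without both arrays that stood apart, Ptger4 at 0.09 without IL10-/- replicate 2, Ptgdr at 0.01 without IL10-/- replicate 3 and Ptgs2 at 0.01 without IL10-/- replicate 4. The tally overstates stability, because some alternatives could not move a difference. Trend and robust settings, the equal-variance test and the replicate block change only SE and p. The signal filter leaves a gene's values as they are, and averaging probe sets alters only Ptgdr among the 4. With each array left out in turn, differences ran from 0.00 to 0.09 for Ptger2, -0.36 to 0.09 for Ptger4, -0.16 to 0.01 for Ptgdr and -0.13 to 0.01 for Ptgs2. Ptgs2 lay below the signal filter and had no value there. No pairing by replicate number was seen. Deviations of same-numbered arrays correlated at 0.05, -0.32, 0.03 and -0.19, and 0 of 8 arrays correlated best with their own number. The arrays that stood apart carry different numbers, which lowers such correlations, so this check cannot exclude pairing. The replicate block could not change the 4 differences, as each number occurs once per group. It took the count of all genes past the threshold to 1 from 2. That count was also 1 with median centring, array weights, the equal-variance test or without both arrays that stood apart, and 1 to 4 with 1 array left out. The causes were not tested.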

Other observations

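Ptgs2os, a transcript gene on the strand opposite Ptgs2, chosen after its values were seen, read 5.91, 6.06, 6.10 and 5.98 in IL10-/- and 6.06, 5.91, 6.12 and 6.18 in IL10+/+. The groups overlapped, and the difference was -0.06 (SE 0.10, limma adjusted p = 0.999).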
